A study of Mus musculus with 90 samples.

Results

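Described here are 9 targets of the peroxisome proliferator-activated receptors (PPARs) that act in fatty acid oxidation and its supply: Pdk4, Angptl4, Plin2, Cpt1a, Acadl, Acot1, Acot2, Acox2 and Ucp3. They were chosen by gene symbol from the platform's annotation, with earlier results of these data known, as 9 of the 17097 genes tested. The annotation gave them 13 probe sets with a single gene symbol, and each gene was read from the probe set with the highest mean over all 90 arrays. None of the 9 was missing, and no filter on low values was applied.

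PPARs are nuclear receptors that are activated by fatty acids. They bind DNA together with a retinoid X receptor at repeats of the hexamer AGGTCA, and they raise transcription of genes for fatty acid uptake, storage and oxidation, above all in liver, muscle and heart during fasting. In the lung, fatty acids serve as fuel and as material for surfactant, and whole lung also holds fat, muscle and vessel cells in which these genes are active. The members cover different steps: Pdk4 and Angptl4 set fuel use and fatty acid supply, Plin2 coats lipid droplets, Cpt1a and Acadl carry fatty acids into and through mitochondrial oxidation, Acot1 and Acot2 split acyl-CoA, Acox2 acts in peroxisomes and Ucp3 in the mitochondrial inner membrane.

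The samples are RNA of whole lungs, 1 array per animal, from adult C57Bl/6 males of 3 strains. The TG strain is CYP2F2(-/-),2F1,SA13,2B6 transgenic, so it lacks Cyp2f2 as the KO does and carries the CYP2F1 humanized transgenes in addition. The KO strain is CYP2F2(-/-), and the WT strain is wild type. Cyp2f2 is a cytochrome P450 of airway club cells that oxidises styrene, a volatile solvent. Which promoter drives the transgenes was not stated in the labels. Exposure was to styrene vapour at 0 (air), 40 or 120 ppm, in daily sessions of 6 hours on 5 days of each week. It lasted 1 or 4 weeks, and tissue was collected the next morning. This gave 18 groups of 5 animals, and each strain and week had its own air control.

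Values are log2 expression values, on which a difference of 1 is a 2-fold difference. Array medians lay between 4.42 and 4.86, and genes averaging below 4.42 are termed dim here. The highest correlation between any pair of arrays was 0.997, and no pair held identical values. Cyp2f2 probe signal ranged from 11.58 to 12.13 in TG lungs and from 11.53 to 12.28 in KO lungs, against 12.73 to 13.39 in WT lungs (30 animals each), so the ranges of both Cyp2f2-deficient strains lay below that of WT. Markers of alveolar type II cells averaged between 10.92 and 11.43 per animal, and markers of club cells between 10.36 and 11.80. In contrast, 11 of 13 skeletal muscle markers and 11 of 14 hepatocyte markers were dim. Of 10 cardiac muscle markers only 1 was dim, and their mean ranged widely between animals, from 4.82 to 9.53. The part of such tissue in the members' values was not tested.

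The promoters shown are those of the 1 member that passed in 3 exposure comparisons (Acox2), of the member with the largest strain difference (Pdk4), of the tandem paralogs Acot1 and Acot2, which varied most closely together, and of Plin2, which held one of the nearest matches to the PPAR element. Each runs from 250 bases before to 50 bases after a transcription start, 5′ to 3′ on the gene's strand, from RefSeq on GRCm38.p6. Capitals mark the stretch with the fewest mismatches, on either strand, to AGGTCANAGGTCA, the direct repeat spaced by 1 base that PPARs bind with the retinoid X receptor (12 positions scored, N free). The hexamer AGGTCA was searched too, on both strands, and overlaps the repeat by construction.
Acox2 (second of 2 starts, chr14:8258790-8259089, minus strand): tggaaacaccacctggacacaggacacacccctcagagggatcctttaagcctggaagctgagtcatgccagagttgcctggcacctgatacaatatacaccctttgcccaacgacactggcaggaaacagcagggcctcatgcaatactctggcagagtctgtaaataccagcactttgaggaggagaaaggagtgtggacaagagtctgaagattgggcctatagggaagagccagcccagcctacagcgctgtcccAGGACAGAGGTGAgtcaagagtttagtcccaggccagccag
Pdk4 (chr6:5496229-5496528, minus strand): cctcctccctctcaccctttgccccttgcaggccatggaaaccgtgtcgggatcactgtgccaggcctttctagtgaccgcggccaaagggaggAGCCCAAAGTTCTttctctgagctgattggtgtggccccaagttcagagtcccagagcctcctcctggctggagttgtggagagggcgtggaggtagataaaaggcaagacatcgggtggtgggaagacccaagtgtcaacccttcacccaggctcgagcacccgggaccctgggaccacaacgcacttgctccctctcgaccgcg
Acot1 (chr12:84009252-84009551, plus strand): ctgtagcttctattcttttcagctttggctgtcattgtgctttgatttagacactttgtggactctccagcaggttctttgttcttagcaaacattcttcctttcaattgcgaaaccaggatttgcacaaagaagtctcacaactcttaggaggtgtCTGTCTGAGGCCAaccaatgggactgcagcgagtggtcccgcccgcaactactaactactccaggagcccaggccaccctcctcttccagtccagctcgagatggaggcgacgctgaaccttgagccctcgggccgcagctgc
Acot2 (chr12:83987611-83987910, plus strand): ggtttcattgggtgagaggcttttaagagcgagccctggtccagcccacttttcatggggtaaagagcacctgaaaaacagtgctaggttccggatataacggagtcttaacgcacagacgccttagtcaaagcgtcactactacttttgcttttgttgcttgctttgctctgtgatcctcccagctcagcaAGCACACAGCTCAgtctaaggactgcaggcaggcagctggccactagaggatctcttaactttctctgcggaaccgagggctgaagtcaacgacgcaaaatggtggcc
Plin2 (chr4:86670010-86670309, minus strand): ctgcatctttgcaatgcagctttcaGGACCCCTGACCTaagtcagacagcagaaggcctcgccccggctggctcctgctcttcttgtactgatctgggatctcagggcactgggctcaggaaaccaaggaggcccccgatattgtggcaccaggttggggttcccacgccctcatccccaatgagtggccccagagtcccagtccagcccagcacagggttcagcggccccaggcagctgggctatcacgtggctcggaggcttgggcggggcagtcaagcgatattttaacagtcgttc

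No member promoter held the exact motif, which was present in 0.0396% of 32851 promoters of this length. The stretch AGGACAGAGGTGA of Acox2, beginning 9 bases after the start, differed from it at 2 positions. The stretch in Plin2, which begins at position −225 relative to the start and reads as the motif on the opposite strand, also had 2 mismatches, as did 1 stretch in Ucp3 (AGGTTTCAGGTCA). A match with up to 2 mismatches occurred in 3.86% of all promoters. Acot2 and the first Acox2 start reached 3 mismatches, a level met by 24.6% of all promoters, whereas Pdk4, Cpt1a and Acot1 had 4 and Acadl had 5. The single hexamer AGGTCA occurred in 16.3% of all promoters, and among the members in Plin2, Cpt1a and Ucp3. These matches describe letters in short windows and show neither binding nor its absence. No promoter of Angptl4 is shown.

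Across the 18 groups the members differed most in Angptl4 and Pdk4 and least in Acadl. The distance between the highest and the lowest group mean was 4.67-fold for Angptl4, 3.66-fold for Pdk4, 2.91-fold for Acox2, 2.41-fold for Acot1 and 2.38-fold for Acot2. It was 1.51-fold for Cpt1a, 1.34-fold for Plin2 and for Ucp3, and 1.20-fold for Acadl. Differences among the 18 group means passed limma's moderated F test (Benjamini-Hochberg over all genes, threshold 0.05) for 6 of 9 members, where 29.9% of all genes passed. These were Acox2 (adjusted p = 1.48e-13), Pdk4 (7.86e-05), Angptl4 (0.000157), Acot2 (0.000174), Acot1 (0.000406) and Cpt1a (0.0425), while Plin2 (0.0741), Acadl (0.188) and Ucp3 (0.263) did not pass. In bulk lung, fewer cells of a type and less RNA per cell cannot be told apart.

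Pdk4, Angptl4, Acot1 and Acot2 had their highest mean in TG controls of week 1 and their lowest in WT mice at 40 ppm and 1 week. Pdk4 averaged 7.39 ± 0.49 in those TG controls and 5.52 ± 0.34 in those WT mice (SD, n = 5 each). Angptl4 averaged 9.86 ± 0.45 and 7.64 ± 0.45 in the same groups. Groups next to each other in these orders lay within the within-group spread, which was 0.55 for Pdk4, 0.63 for Angptl4, 0.39 for Acot1 and 0.38 for Acot2 (pooled SD). Acox2 ran in another order. Its 4 highest group means were those of the 4 exposed WT groups, topped by WT mice at 120 ppm and 1 week (8.19 ± 0.21), and its lowest was in TG controls of week 4 (6.65 ± 0.18).

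**Figure D1:**
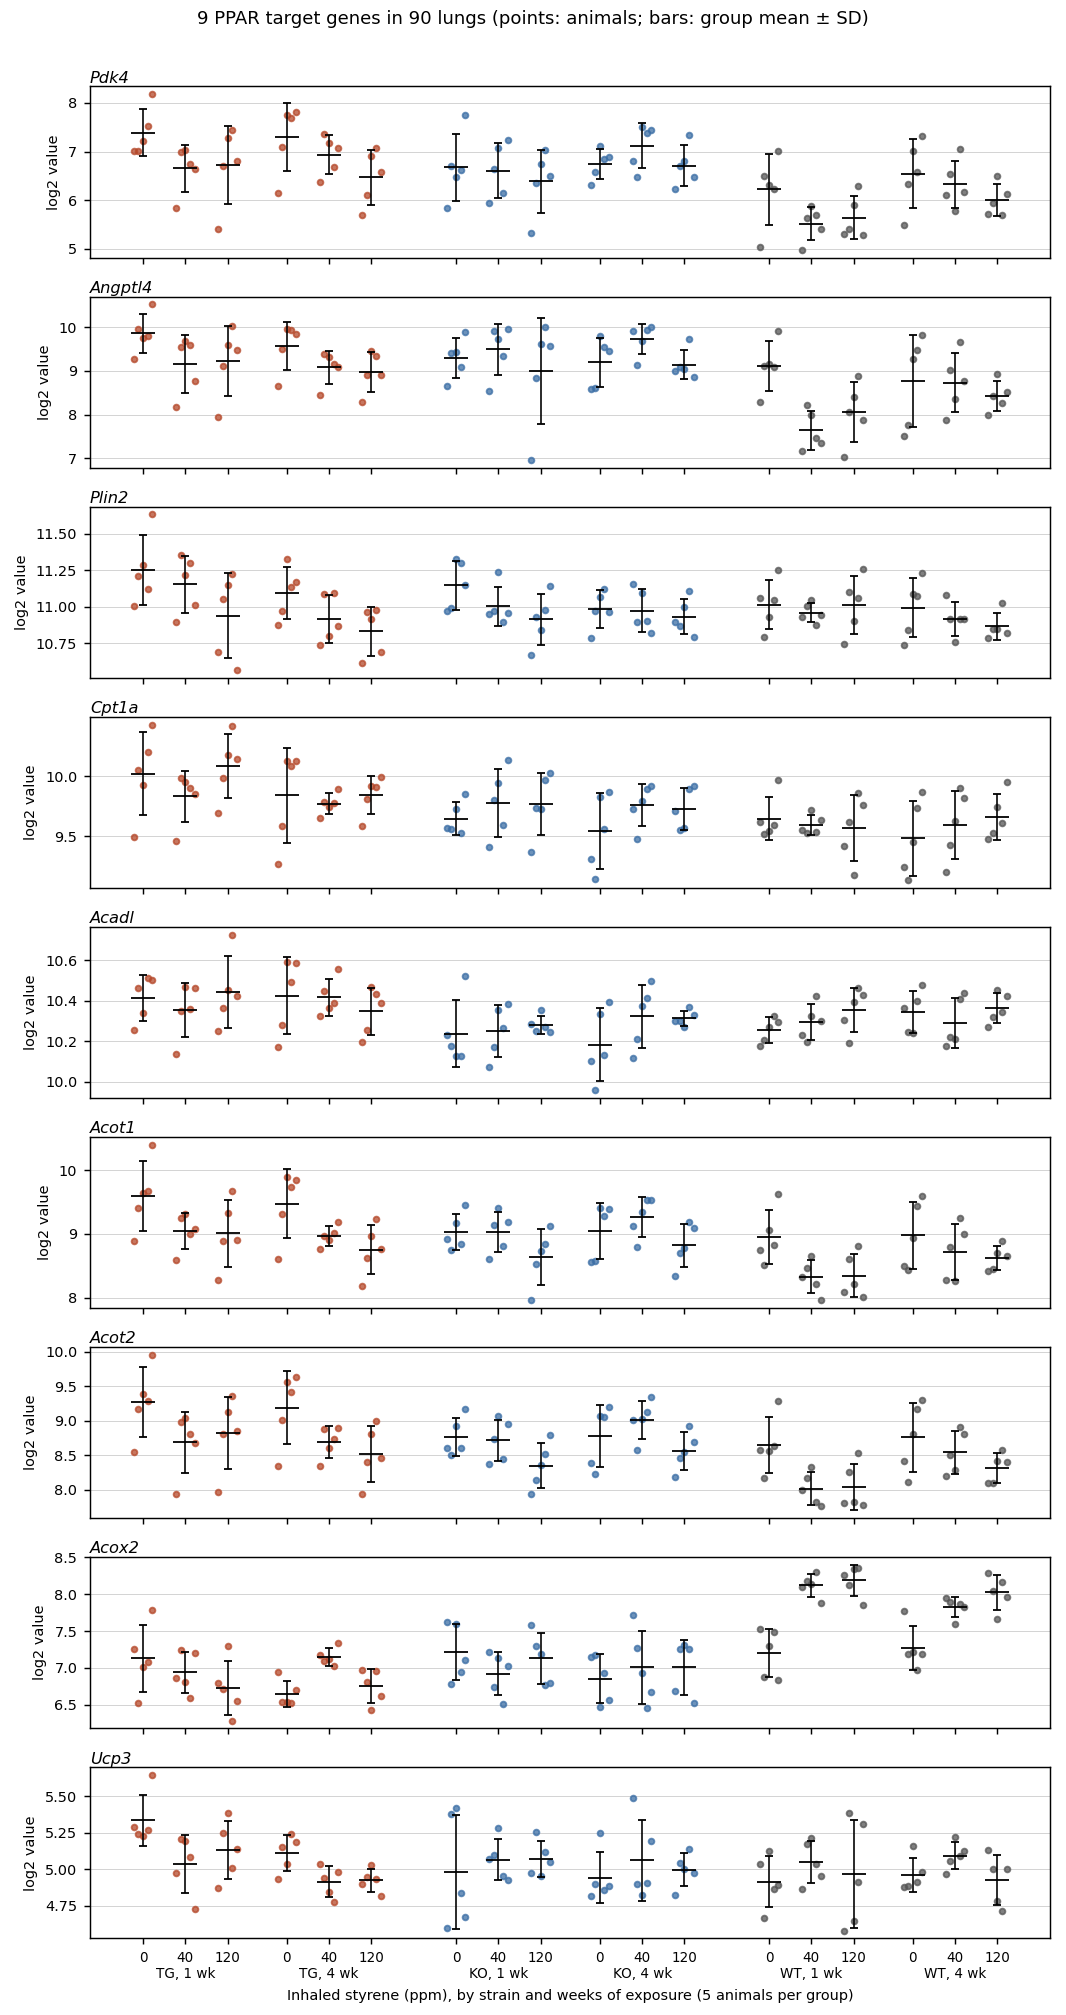
Log2 values of the 9 genes (vertical axes, 1 panel per gene) in 90 lungs, by strain, weeks of exposure and inhaled styrene in ppm (horizontal axis). Points are animals and bars are group means ± SD (n = 5). The exposed WT groups stand above the other groups for Acox2, with group means from 7.83 to 8.19, and the WT groups exposed for 1 week lie low for Angptl4, at 7.64 and 8.05.

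The lipid supply gene Angptl4, a secreted inhibitor of lipoprotein lipase, and the peroxisomal gene Acox2 were the members whose level changed with styrene past the test, both in WT lungs. Acox2, a peroxisomal oxidase of branched acyl-CoA and bile acid intermediates, rose at 40 and 120 ppm after 1 week and at 120 ppm after 4 weeks, by 1.69- to 1.98-fold. Angptl4 fell 2.77-fold at 40 ppm after 1 week. Over the 12 exposure comparisons 4 of 108 member values passed, where 0% to 6.79% of all genes passed per comparison. An unadjusted p under 0.05 was found for 26 of 108, where 2.45% to 19.9% of all genes had one per comparison. The exposed groups of one strain and week share their air controls, so their changes are not independent.

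In WT lungs of week 1, Acox2 was at 7.53, 6.88, 7.30, 7.48 and 6.84 with 0 ppm, at 8.10, 8.17, 8.15, 8.30 and 7.89 with 40 ppm, and at 8.26, 8.13, 8.34, 8.36 and 7.85 with 120 ppm. All 5 animals at each dose were above all 5 controls, and the 2 doses overlapped. The change was 0.92 (SE 0.19; 95% interval 0.54 to 1.30; adjusted p = 0.000639) at 40 ppm and 0.98 (SE 0.19; 0.60 to 1.36; adjusted p = 0.000203) at 120 ppm. In week 4, Acox2 was at 7.77, 7.19, 7.22, 6.98 and 7.19 with 0 ppm, at 7.95, 7.90, 7.59, 7.87 and 7.82 with 40 ppm, and at 8.29, 8.04, 7.67, 8.17 and 7.97 with 120 ppm. Here 4 of 5 animals at each dose were above all controls, and the control at 7.77 overlapped both exposed groups. The change in week 4 was 0.56 (SE 0.19; adjusted p = 0.597) at 40 ppm and 0.76 (SE 0.19; adjusted p = 0.0428) at 120 ppm. That last call lay close to the threshold. In the 10 fits with 1 animal of the compared groups left out, the change stayed between 0.68 and 0.88. The call was lost in 8 of the 10, with an adjusted p of up to 0.168 without control animal 4. These 8 were the fits without control 2 (0.115), control 3 (0.109), control 4 (0.168) or control 5 (0.114), or without exposed animal 1 (0.15), 2 (0.108), 4 (0.132) or 5 (0.0706).

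Angptl4 in WT lungs of week 1 was at 8.29, 9.10, 9.16, 9.08 and 9.91 with 0 ppm, at 7.16, 8.21, 8.0, 7.47 and 7.35 with 40 ppm, and at 7.03, 8.05, 8.39, 8.89 and 7.88 with 120 ppm. At 40 ppm all 5 animals were below all controls, while at 120 ppm 3 of 5 were. The change was −1.47 (SE 0.39; 95% interval −2.25 to −0.70; adjusted p = 0.0118) at 40 ppm and −1.06 (SE 0.39; −1.83 to −0.28; adjusted p = 0.0875) at 120 ppm. Without control animal 5, which had the highest value, the 40 ppm change was −1.27 and its adjusted p 0.064. The 120 ppm change passed without control animal 1 (−1.26; adjusted p = 0.0395) or without exposed animal 4 (−1.27; adjusted p = 0.0359). The dim second Angptl4 probe set, which followed the first over the group means (r = 0.87, n = 18), had a change of −0.28 at 40 ppm (adjusted p = 0.431). In week 4 the controls themselves ranged from 7.51 to 9.82, and the changes were −0.04 at 40 ppm and −0.35 at 120 ppm (adjusted p = 0.998 and 0.999).

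The acyl-CoA thioesterases Acot1 (cytosolic) and Acot2 (mitochondrial) release free fatty acids from acyl-CoA. They are near-identical neighbours in the genome, and the Acot2 probe set is of a kind that can bind more than 1 transcript, so their signals may be shared. The Angptl4 probe set used is of this kind too. Acot1 in WT lungs of week 1 was at 8.75, 8.51, 9.06, 8.82 and 9.63 with 0 ppm, at 8.33, 8.46, 8.66, 8.22 and 7.97 with 40 ppm, and at 8.10, 8.60, 8.21, 8.81 and 8.02 with 120 ppm. At 40 ppm 4 of 5 animals and at 120 ppm 3 of 5 were below all controls. The changes of −0.63 and −0.61 (SE 0.24 each) had unadjusted p-values of 0.0116 and 0.0143 and did not pass (adjusted p = 0.139 and 0.123). Acot2 gave −0.63 and −0.61 (SE 0.23 each; adjusted p = 0.119 and 0.109), and without exposed animal 4 its 120 ppm change was −0.73 (adjusted p = 0.0475). The other Acot2 probe set, which is dimmer, had changes of −0.24 and −0.27 (adjusted p = 0.657 and 0.503).

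Pdk4, the kinase that switches off pyruvate dehydrogenase when fat is burned, was at 5.03, 6.50, 6.32, 6.23 and 7.02 with 0 ppm, at 4.98, 5.63, 5.87, 5.69 and 5.41 with 40 ppm, and at 5.31, 5.40, 5.90, 6.28 and 5.28 with 120 ppm in WT lungs of week 1. The groups overlapped, since 1 control lay at the level of the lowest exposed animals. The 120 ppm animal at 6.28 also lay above the control at 6.23. The changes were −0.70 and −0.58 (SE 0.34 each; adjusted p = 0.28 and 0.346). The remaining members did not pass in WT lungs of week 1 and had small changes. Plin2, the lipid droplet coat protein, had changes of −0.06 and −0.00 at 40 and 120 ppm, and Cpt1a, which makes the acylcarnitine that enters mitochondria, of −0.05 and −0.08. Acadl, the long-chain acyl-CoA dehydrogenase, had changes of 0.04 and 0.10, and Ucp3, a mitochondrial carrier whose signal lay near background, of 0.13 and 0.05. For Plin2 the 95% interval at 40 ppm was −0.27 to 0.16, for Cpt1a −0.36 to 0.25, for Acadl −0.12 to 0.20 and for Ucp3 −0.11 to 0.38.

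Set against all genes, WT lungs of week 1 had 2 of 9 members past the test at 40 ppm, where 4.67% of all genes passed, and 1 of 9 at 120 ppm, where 6.79% passed. With the replicate number of the labels as a block in the fit, 4 of 9 passed at 40 ppm (5.11% of all genes) and 4 of 9 at 120 ppm (7.69%). In week 4, 0 of 9 members passed in the reported fit at 40 ppm (0.152% of all genes) and 1 of 9 at 120 ppm (0.439%). At an unadjusted p under 0.05 the counts were 5, 4, 1 and 1 of 9, beside 16.3%, 19.9%, 4.73% and 5.93% of all genes. The median change over the 9 members was −0.06, −0.08, −0.05 and −0.13, beside medians over all genes of 0.03, 0.00, 0.01 and 0.01. The F test over the 4 exposure changes of WT passed for Acox2 (adjusted p = 9.22e-06) and for no other member, where 4.69% of all genes passed.

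Other values moved in the same WT lungs. Endothelial markers averaged 10.29 to 10.50 per animal at 0 ppm, 10.02 to 10.24 at 40 ppm and 9.99 to 10.23 at 120 ppm in week 1, and 3 and 6 of 13 were lower past the test at the 2 exposures, with 1 higher at 120 ppm. Of 13 alveolar type II markers 7 and 4 were higher, and of 12 alveolar macrophage markers 1 and 4. Of 16 circadian clock genes 6 were higher and 3 lower at 40 ppm, and 8 and 4 at 120 ppm, with Dbp at 3.36 and 3.42 and Arntl at −2.28 and −2.43. Among 13 glucocorticoid targets other than Pdk4 and Angptl4, 2 were higher and 2 lower at 40 ppm, and 2 and 4 at 120 ppm. Of 9 adipocyte markers 0 passed at either dose (0 and 1 at an unadjusted p under 0.05). The part of these genes in the Acox2 and Angptl4 changes was not tested.

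**Figure D2:**
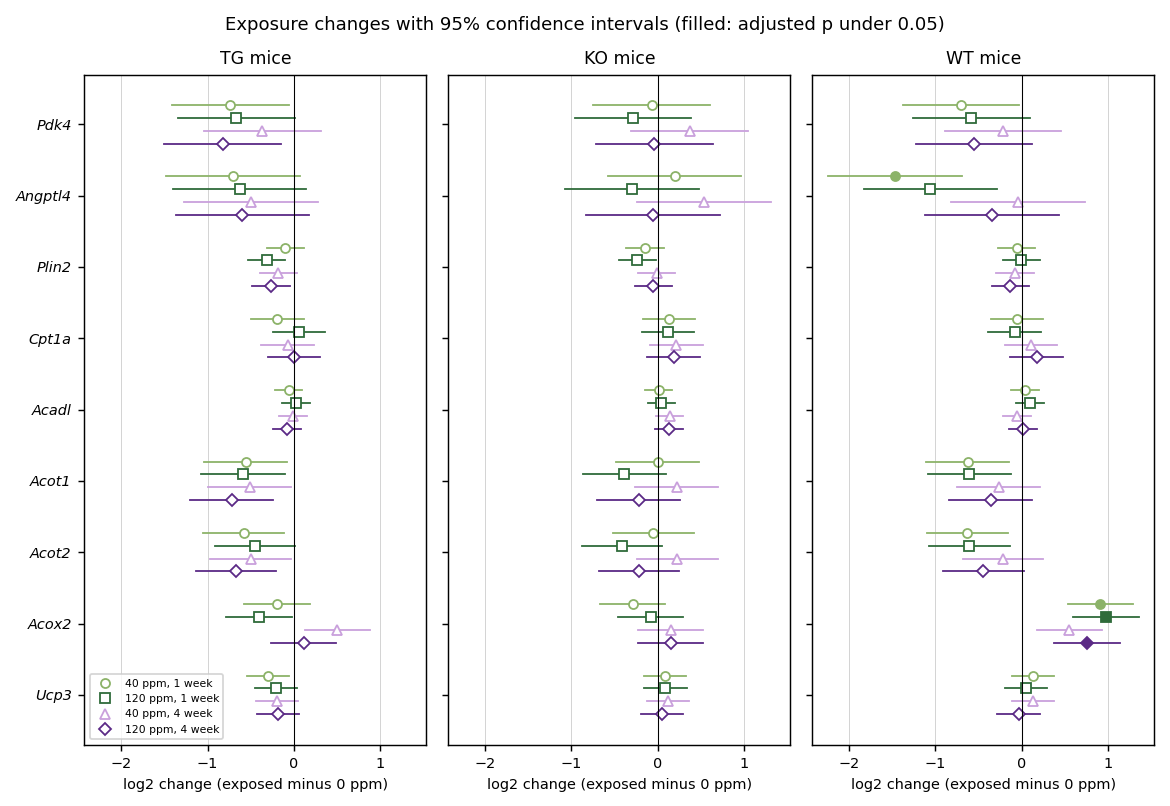
Log2 change of each gene (rows) in exposed minus air-breathing lungs with 95% confidence intervals, in TG, KO and WT mice, by dose and weeks. Filled points passed the test (limma, adjusted p under 0.05, n = 5 per group). Filled points are found only for Acox2 (0.92, 0.98 and 0.76) and Angptl4 (−1.47) in WT mice.

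No member passed in exposed TG lungs, where limma called 0% of all genes at 40 ppm and 1 week, 0.0468% at 120 ppm and 1 week, 0% at 40 ppm and 4 weeks and 0.0117% at 120 ppm and 4 weeks. At an unadjusted p under 0.05, 4, 3, 3 and 4 of 9 members were past it, beside 4.43%, 9.26%, 7.48% and 5.61% of all genes. Pdk4 had changes of −0.74, −0.67, −0.36 and −0.82 in that order of groups (SE 0.34), Acot1 of −0.56, −0.59, −0.51 and −0.72 (SE 0.24), Angptl4 of −0.71, −0.63, −0.50 and −0.59 (SE 0.39) and Plin2 of −0.10, −0.31, −0.18 and −0.26 (SE 0.11). Every one of these values was negative, but the 2 doses of a week share their controls. Acot2 (−0.58, −0.45, −0.50 and −0.67) and Ucp3 (−0.30, −0.20, −0.19 and −0.19) were negative too. Cpt1a (−0.19, 0.06, −0.07 and 0.00) and Acadl (−0.06, 0.03, −0.01 and −0.08) went both ways. With 1 animal left out, the Acot1 change at 40 ppm and 1 week ranged from −0.73 to −0.36. Acox2 in TG lungs of week 4 was at 6.94, 6.54, 6.53, 6.52 and 6.70 with 0 ppm, at 7.18, 7.10, 7.12, 7.02 and 7.34 with 40 ppm, and at 6.97, 6.81, 6.43, 6.96 and 6.63 with 120 ppm. The 40 ppm animals were all above the controls (change 0.51, SE 0.19; adjusted p = 0.455), whereas those at 120 ppm overlapped them (change 0.11; adjusted p = 0.999). In week 1 the TG changes of Acox2 were −0.19 and −0.40 (adjusted p = 0.984 and 0.515). Ucp3 was lower in all 5 TG animals at 40 ppm and 1 week than in all controls, by a change of −0.30 (SE 0.12; adjusted p = 0.984), at signals close to background.

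In KO lungs, too, no member passed, with 0%, 0%, 0% and 0.0234% of all genes called at 40 and 120 ppm in week 1 and at 40 and 120 ppm in week 4. Only Plin2 at 120 ppm and 1 week had an unadjusted p under 0.05 (change −0.23, SE 0.11; adjusted p = 0.927), where 5.15% of all genes had one. Angptl4 in KO lungs of week 1 was at 8.65, 9.41, 9.43, 9.09 and 9.89 with 0 ppm, at 8.53, 9.90, 9.72, 9.33 and 9.97 with 40 ppm, and at 6.96, 8.84, 9.61, 10.01 and 9.56 with 120 ppm. These groups overlapped, and the 120 ppm group held the lowest Angptl4 value of all 90 animals. Acox2 in KO lungs of week 1 was at 7.62, 6.79, 7.60, 6.95 and 7.10 with 0 ppm, at 7.21, 6.74, 7.13, 6.51 and 7.02 with 40 ppm, and at 7.58, 7.29, 7.19, 6.77 and 6.80 with 120 ppm. Its changes were −0.29 and −0.08 (SE 0.19; adjusted p = 1 and 0.997), and in week 4 they were 0.15 at both doses. The F tests over the 4 changes passed for 0 of 9 members in TG (0.0877% of all genes; 5 members at an unadjusted p under 0.05) and for 0 of 9 in KO (0.0351%; 0 members).

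The difference between strains was tested itself, as the change in TG or KO minus the change in WT. Acox2 passed in all 4 such comparisons of week 1. In TG minus WT it was −1.11 at 40 ppm (SE 0.27; adjusted p = 0.0123) and −1.39 at 120 ppm (SE 0.27; adjusted p = 0.000454). In KO minus WT it was −1.20 at 40 ppm (SE 0.27; adjusted p = 0.00704) and −1.06 at 120 ppm (SE 0.27; adjusted p = 0.0162). Both strains were set against the same WT lungs. In fits of only the compared arrays, the 120 ppm differences did not pass (adjusted p = 0.0685 for TG minus WT and 0.169 for KO minus WT). The TG difference at 40 ppm was −0.94 (adjusted p = 0.0731) without TG control animal 5, and the KO difference at 120 ppm had adjusted p-values of 0.0568 without WT control animal 2 and 0.0573 without KO control animal 3. In week 4 the Acox2 differences were −0.05 and −0.64 for TG minus WT (adjusted p = 0.994 and 0.998) and −0.40 and −0.61 for KO minus WT (adjusted p = 1 each). Angptl4 differed by 1.67 in KO minus WT at 40 ppm and 1 week (SE 0.55; 95% interval 0.57 to 2.77; adjusted p = 0.129) and by 0.76 in TG minus WT (SE 0.55; adjusted p = 0.576).

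Acox2 was thus the 1 member of 9 called in each of these 4 comparisons. Among all genes, 1.53% were called for TG minus WT at 40 ppm and 4.59% at 120 ppm in week 1, and 1.25% and 2.37% for KO minus WT. In week 4, 0 of 9 members were called, beside 0.0117% and 0.0292% of genes for TG minus WT and 0.0234% and 0.0175% for KO minus WT. Acox2 at 120 ppm was the 1 member of week 4 with an unadjusted p under 0.05 in TG minus WT and in KO minus WT, and at 40 ppm 0 members had one. Of all genes, 4.08% and 2.48% had one at 120 ppm, and 5.71% and 2.50% at 40 ppm. Between TG and KO, 0 of 9 members and 0% of all genes were called at either dose or week. At an unadjusted p under 0.05 there were 1, 0, 2 and 0 members, beside 2.94%, 2.95%, 4.59% and 2.10% of all genes. These are in the order 40 and 120 ppm of week 1, then of week 4.

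Without exposure, the members stood higher in TG lungs than in WT lungs except for Acox2, but none passed the test in the reported fit. With the replicate number of the labels as a block in the fit, 5 members passed, beside 0.468% of all genes. These were Pdk4 (adjusted p = 0.000197), Cpt1a (0.00444), Acot1 (0.011), Acot2 (0.0211) and Angptl4 (0.0357). The labels do not say what that number marks, and it was not taken to pair the animals. Pdk4 in TG controls was at 7.01, 7.02, 7.21, 7.52 and 8.18 in week 1 and at 6.15, 7.08, 7.75, 7.68 and 7.81 in week 4. In KO controls it was at 5.83, 6.70, 6.47, 6.62 and 7.75 in week 1 and at 6.31, 6.59, 7.11, 6.85 and 6.88 in week 4. WT controls were at 5.03, 6.50, 6.32, 6.23 and 7.02 in week 1 and at 5.49, 6.33, 7.00, 6.58 and 7.33 in week 4. Of 10 TG animals 5 lay above all 10 WT animals, and the strains overlapped below that. TG minus WT, with the weeks averaged, was 0.96 (SE 0.24; 95% interval 0.48 to 1.44; 1.94-fold), just short of the threshold (adjusted p = 0.0509). This value was sensitive to single animals: its adjusted p was 0.00825 without TG animal 1 of week 4, 0.0354 without TG animal 1 of week 1, 0.0219 without WT animal 5 of week 1, and 0.0416 and 0.0214 without WT animals 3 and 5 of week 4. Of the 20 fits that left out 1 animal only these 5 passed, and the highest adjusted p was 0.181, without WT animal 1 of week 4. Of 9 alternatives other than leaving out 1 animal, Pdk4 passed in 6, the block among them. Over all alternatives its highest adjusted p was 0.283.

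The other members showed smaller differences in TG minus WT, given here with 10 animals per strain. Angptl4 was at 8.65 to 10.52 (median 9.81) in TG and at 7.51 to 9.91 (median 9.13) in WT, a difference of 0.78 (SE 0.28; adjusted p = 0.287). Acot1 was at 8.60 to 10.40 (median 9.66) in TG and at 8.44 to 9.63 (median 8.88) in WT, a difference of 0.57 (SE 0.17; adjusted p = 0.161), with 6 of 10 TG animals above all WT animals. Cpt1a, at 9.27 to 10.43 (median 10.07) in TG and 9.13 to 9.97 (median 9.57) in WT, differed by 0.36 (SE 0.11; adjusted p = 0.149), again with 6 of 10 above. The strains overlapped for each of these genes. Acot2 differed by 0.53 (adjusted p = 0.192), Ucp3 by 0.28 (adjusted p = 0.178), Plin2 by 0.17 (adjusted p = 0.493) and Acadl by 0.12 (adjusted p = 0.522). Acox2 differed by −0.35 (SE 0.13; adjusted p = 0.367). Without TG animal 1 of week 4, Cpt1a (adjusted p = 0.0286), Acot1 (0.0352) and Acot2 (0.0447) passed as Pdk4 did, and Cpt1a also passed without TG animal 1 of week 1 (0.038). In the other direction, without TG animal 5 of week 1 the adjusted p was 0.349 for Cpt1a, 0.406 for Acot1 and 0.445 for Acot2. The array of that animal had a limma weight of 0.155, under the cut of 0.25 for low-weight arrays.

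All 9 members had an unadjusted p under 0.05 in TG minus WT, 8 higher and Acox2 lower, beside 8.92% of all genes. In the reported fit 0 of 9 passed, beside 0.287% of all genes. The members were chosen with earlier results of these data known, and most varied together within groups, so these 9 are not separate results. The members' median difference was 0.36, against −0.00 over all genes. In TG minus KO, 6 of 9 members were higher at an unadjusted p under 0.05 and 0 passed (0.135% of all genes passed, 5.31% unadjusted), among them Cpt1a at 0.34 (SE 0.11; adjusted p = 0.43) and Acadl at 0.21 (SE 0.06; adjusted p = 0.163). Without KO animal 5 of week 1 Acadl passed at 0.25 (adjusted p = 0.0316), and without TG animal 1 of week 4 at 0.24 (adjusted p = 0.0398). In KO minus WT 0 of 9 members had an unadjusted p under 0.05 and 0 passed, beside 0.275% of all genes, with Pdk4 at 0.33 (SE 0.24; adjusted p = 0.869). The mean of the 9 adipocyte markers measured ranged from 5.78 to 7.94 in TG controls, from 5.68 to 7.82 in KO controls and from 5.28 to 6.81 in WT controls, so the strains overlapped. In TG minus WT, 0 of these 9 passed and 2 were higher at an unadjusted p under 0.05, with a median difference of 0.74, Adipoq at 1.18 (SE 0.61; adjusted p = 0.569), and Lep and Pnpla3 dim. The mean of the 7 brown adipocyte markers measured, 3 of them dim, ranged from 4.89 to 6.61 in TG controls. It ranged from 4.88 to 5.70 in KO controls and from 4.82 to 5.25 in WT controls. The part of either list in the members' differences was not tested.

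**Figure D3:**
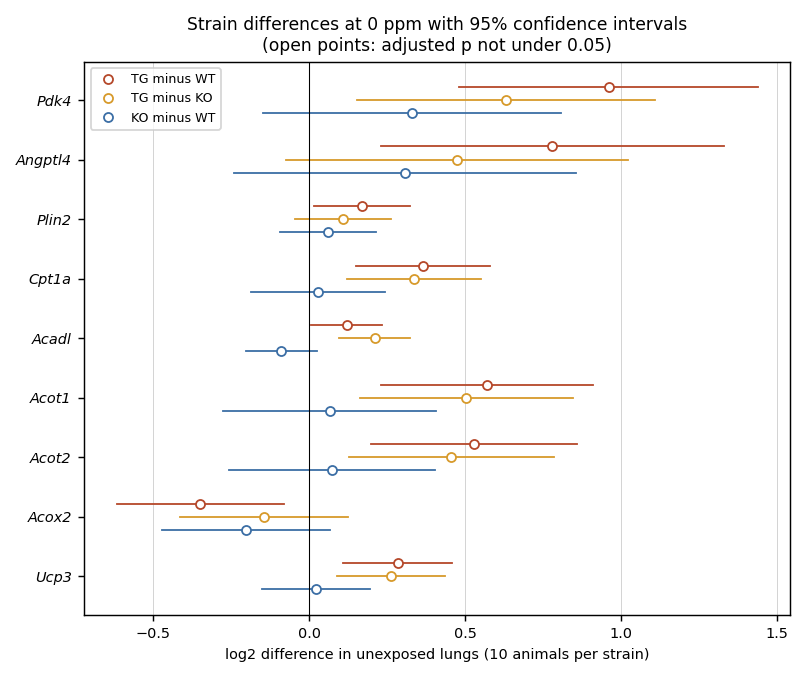
Log2 differences between strains in unexposed lungs (horizontal axis) for the 9 genes (rows) with 95% confidence intervals, 10 animals per strain and both weeks averaged. Every point is open because no difference passed the test in the reported fit, which leaves out the replicate number. The TG minus WT differences lie above 0 for 8 genes, the largest at 0.96 for Pdk4, and at −0.35 for Acox2.

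No member value passed between doses or between weeks. In WT mice the difference of 120 minus 40 ppm was 0.07 for Acox2 in week 1 and 0.20 in week 4 (SE 0.19; 95% intervals −0.31 to 0.45 and −0.18 to 0.58), and 0.41 and −0.31 for Angptl4 (SE 0.39). By limma 0 of 54 member values between doses passed, and 2 had an unadjusted p under 0.05, where 2.13% to 9.94% of all genes had one per comparison. Among all genes 0% were called between doses in every strain and week except TG in week 1, with 0.0351%. Between unexposed weeks, 4 minus 1, 0 of 27 member values passed, where 0.304% of all genes were called in TG, 0.538% in KO and 0.638% in WT. The 1 value with an unadjusted p under 0.05 was Acox2 in TG (−0.49, SE 0.19; adjusted p = 0.28), where 14.8% of all genes had one. Between weeks in the exposure change, 0 of 54 member values passed, where 0.532% of genes were called in WT at 40 ppm, 0.883% in WT at 120 ppm and 0% in each TG and KO comparison. Angptl4 in WT at 40 ppm gave 1.43 (SE 0.55; 95% interval 0.34 to 2.53; adjusted p = 0.471), so its fall in week 1 and its value in week 4 were not separated by the test.

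The other genes of the pathway, listed by role without the 9 members, are given for WT lungs of week 1, where 4.67% of all genes passed at 40 ppm and 6.79% at 120 ppm. Peroxisomal genes moved both ways: of 19 measured, Abcd3, a peroxisomal fatty acyl transporter, was higher by 0.44 at 40 ppm and by 0.36 at 120 ppm, Phyh, which starts oxidation of branched phytanic acid, was higher by 0.34 at 120 ppm, and the thiolase Acaa1b was lower (−0.99 at each dose). Of 19 mitochondrial oxidation genes, 0 passed at 40 ppm (4 at an unadjusted p under 0.05) and 2 at 120 ppm, Acot13 at 0.37 and Acad11 at 0.29. In the lipid droplet list of 16 genes, Dgat2, which makes triglyceride, was higher (0.85 and 0.80) and Hilpda, an inhibitor of droplet lipolysis, lower (−0.67 and −0.69). Uptake and activation genes gave 2 of 18 higher at each dose, Fabp5 (0.48) and Acsl5 (0.24) at 40 ppm, and Dbi (0.39) and Acsl5 (0.17) at 120 ppm. The carnitine shuttle, with 7 measured, gave Crat (0.37) at 40 ppm and 0 genes at 120 ppm (3 at an unadjusted p under 0.05).

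Of 2 ketone body genes the ketone-using enzyme Oxct1 was higher (0.36 and 0.31), and of 6 omega-oxidation genes Cyp4b1, a lung fatty acid hydroxylase, was lower (−0.36 and −0.32). Of 20 respiratory chain and citrate cycle genes 0 passed at 40 ppm (3 unadjusted), and Cox5a (0.24) and Cs (0.22) were higher at 120 ppm. Of 10 genes of fuel switching and uncoupling 0 passed at either dose (2 and 3 unadjusted), and of 12 receptors and coactivators 0 passed (1 and 4 unadjusted). The medians of these lists lay between −0.00 and 0.20 at 40 ppm and between −0.09 and 0.20 at 120 ppm. Group means of the receptors ranged from 5.31 to 5.65 for Ppara, from 4.79 to 5.11 for Ppard and from 6.40 to 7.16 for Pparg. Ppara had changes of −0.21 at 40 ppm (adjusted p = 0.194) and −0.24 at 120 ppm (adjusted p = 0.0886) in WT lungs of week 1. In TG minus WT without exposure, Txnip, a glucose-responsive inhibitor of glucose uptake, was higher (0.31; adjusted p = 0.0456) and was the 1 gene of these lists that passed.

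Within groups, animals that were high for one member tended to be high for others. Deviations from the group mean were correlated over the 90 animals for all 36 pairs, with two-sided permutation tests within groups (100000 resamples, of which 1e-05 is the smallest p) and Benjamini-Hochberg adjustment over the pairs. Pearson's r passed for 29 of 36 pairs, 26 positive and 3 negative, and Spearman's rho for 28. The tightest pair was Acot1 and Acot2 (r = 0.96, rho = 0.97), whose signal may be shared. Pdk4 and Angptl4, read by unrelated probe sets, had r = 0.86 and rho = 0.86 (adjusted p = 1.9e-05 each). Their r was 0.93 in TG, 0.83 in KO and 0.85 in WT animals (30 each), and 0.85 without the 2 animals farthest from the median of Pdk4.

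The correlations were weaker for Ucp3, and negative or near 0 for most pairs of Acox2, and the 2 genes were set apart after the values were seen. The 21 pairs of the other 7 members had r between 0.28 and 0.96 with a median of 0.69, and all 21 passed by Pearson's r and 20 by Spearman's rho. The exception was Plin2 with Acadl (rho = 0.23; adjusted p = 0.06). Acox2 had r between −0.33 and 0.12 with the 8 others, and 3 pairs passed, all negative: Angptl4 (r = −0.33), Cpt1a (−0.32) and Acadl (−0.28). Ucp3 had r between −0.08 and 0.39, and 5 of 8 pairs passed, all positive. The 90 animals share 1 normalization, and the replicate number of the labels moved with these genes. With the mean of each replicate number removed as well, which was chosen after seeing the data, the 21 pairs had r between 0.05 and 0.93 with a median of 0.55, and the 8 Acox2 pairs had r between −0.11 and 0.22.

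**Figure D4:**
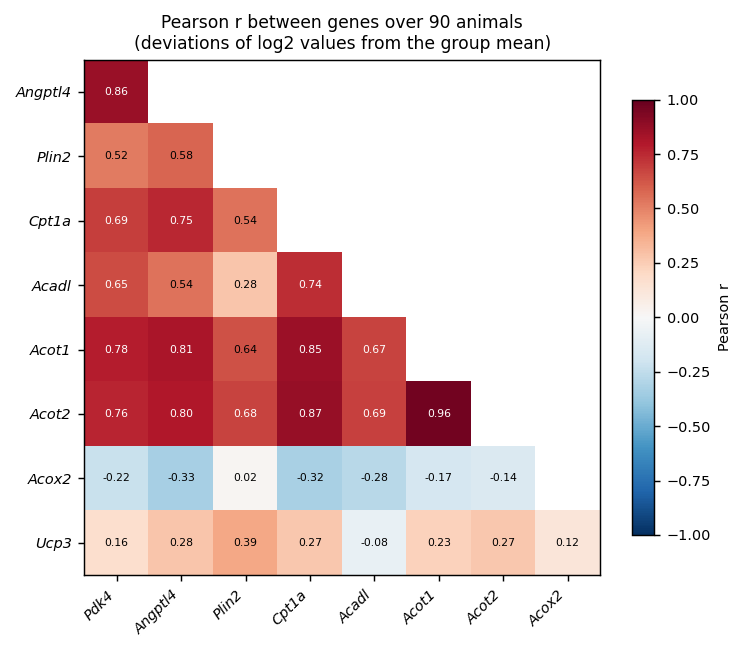
Pearson r of log2 deviations from the group mean over 90 animals for each pair of the 9 genes, from −1 (blue) to 1 (red). The block of 7 genes from Pdk4 to Acot2 is positive throughout, at 0.28 to 0.96, and the Acox2 row runs from −0.33 to 0.12.

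**Figure D5:**
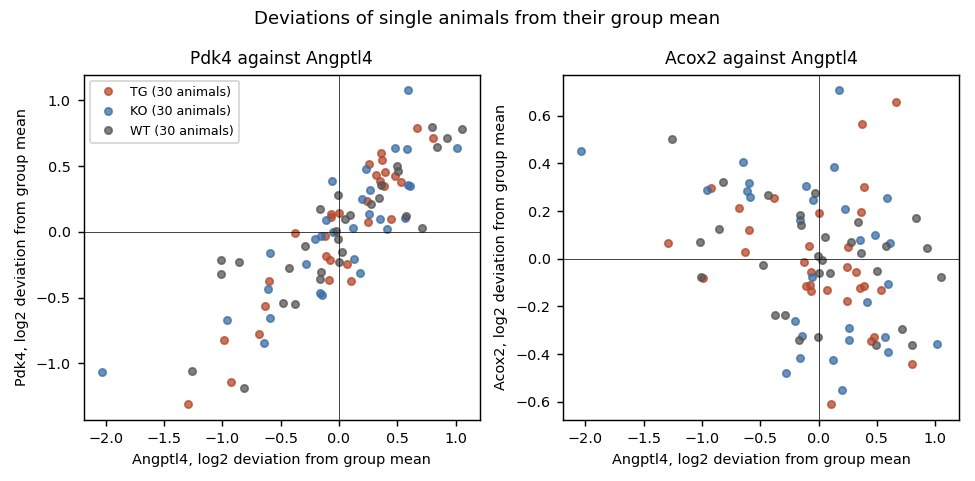
Log2 deviation of each animal from its group mean for Pdk4 (left) and Acox2 (right) on the vertical axis against Angptl4 on the horizontal axis, coloured by strain (30 animals each). Points for Pdk4 rise along a line (r = 0.86), and points for Acox2 scatter with a weak downward slope (r = −0.33).

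The genes whose pattern was most like the mean of the 9 members were named as a description, without a test. Over the 18 group means they were Ly6c1 (r = 0.93), Fam107a and Lipe (0.89 each), Vwf (0.88), Tinagl1 (0.86), Txnip and Tsc22d3 (0.85 each) and Ramp3 (0.84). Over deviations within groups they were Lipe (0.82), Adipor2 (0.80), Mcf2l and Fbxo31 (0.79 each), Fam107a and B4galt4 (0.78 each), and Tspan11 and Baiap2 (0.77 each). Lipe, the hormone-sensitive lipase of fat cells, and Fam107a appear in both lists, which share the same 90 arrays.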

How the data were processed

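RNA from 90 whole lungs was measured on Affymetrix mouse arrays, 1 per animal, in 18 groups of 5. The deposited values are log2 expression values, and the submitters' processing notes name RMA and Partek, with versions not given in the sources used here. They were used as deposited, without a further normalization. The table holds 45141 probe sets, of which 104 controls were left out. The platform annotation gives 1 gene for 28898, several for 551 and none listed for 15588, and the brightest single-gene probe set per gene gave 17097 genes, of which 16936 matched RefSeq by Entrez ID.

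All 18 groups were fitted together in limma 3.58.1 (R 4.3.3), without covariates, and 42 comparisons were tested with Benjamini-Hochberg adjustment over all genes at 0.05. Scripts were tested on simulated data. Correlations used permutations within groups (scipy 1.17.1), and tables and plots used Python 3.11.15, numpy 2.4.6, pandas 2.3.3 and matplotlib 3.10.9. The members and gene lists were chosen with earlier results of these data known. Named in the text are the 9 members, up to 4 genes per list by size of change among those that passed, and the 8 nearest genes of each ranking. The alternatives were another quantile normalization, dim genes left out, the median over probe sets, other probe sets, only the compared arrays, a trended robust fit, array weights, low-weight arrays left out, the replicate number as a block, a poly-A covariate, each animal left out, and Spearman's rho. The number of arrays limits the precision. Nothing in the labels pairs animals across groups, and the labels call the 5 of a group separate animals.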

Additional observations from a re-analysis of the deposited data

Results flagged for a closer look

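Of 162 sets of 5 animals, 1 for each gene and group, 8 held an animal far from the other 4, which is 4.94%, and chance flags about 1 in 20 groups. In 7 of the 8 the animal was the highest. Angptl4 was at 9.73 in KO animal 4 of 120 ppm and 4 weeks, with the others between 8.86 and 9.09. Plin2 was at 11.24 in KO animal 3 of 40 ppm and 1 week (others up to 10.97) and at 11.03 in WT animal 4 of 120 ppm and 4 weeks (others up to 10.85). Cpt1a was at 9.97 in WT control 5 of week 1 (others up to 9.62) and, as the 1 low animal, at 9.46 in TG animal 1 of 40 ppm and 1 week (others from 9.85). Acadl was at 10.52 in KO control 5 of week 1 (others up to 10.23). Ucp3, whose signal is near background, was at 5.65 in TG control 5 of week 1 (others up to 5.29) and at 5.25 in KO control 3 of week 4 (others up to 4.90).

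Acox2 changed differently with styrene in the Cyp2f2-deficient strains than in WT after 1 week, by limma's test of the difference itself with adjustment over all genes. The change in KO minus that in WT was −1.20 at 40 ppm (adjusted p = 0.00704) and −1.06 at 120 ppm (adjusted p = 0.0162). The change in TG minus that in WT was −1.11 at 40 ppm (adjusted p = 0.0123) and −1.39 at 120 ppm (adjusted p = 0.000454). With only the compared arrays in the fit, the 120 ppm differences did not pass (adjusted p = 0.0685 for TG minus WT and 0.169 for KO minus WT).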

How the results depend on the processing

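None of the 1291 alternative values of the 53 member results followed, and none of the 63 for covariation, reversed. Of the member values, 16 no longer passed and 42 newly passed. The number of members that passed moved as follows. In WT at 40 ppm and 1 week it was 5 with array weights, and 3 once the poly-A signal was a covariate (Acot2 added, adjusted p = 0.0456), against 2 in the reported fit. In WT at 120 ppm and 1 week it was 2 with array weights and 2 without low-weight arrays, against 1. In WT it was 1 at 40 ppm and 4 weeks with array weights, against 0, and 0 at 120 ppm and 4 weeks with quantile normalization applied again, against 1. In TG at 120 ppm and 4 weeks it was 1 with array weights, against 0. For TG minus WT without exposure it was 1, from Pdk4, with array weights, the median over probe sets or the poly-A covariate, against 0. The same held with quantile normalization applied again and without genes under the 40th percentile. For TG minus KO it was 1, Ucp3, with the poly-A covariate, against 0. For KO minus WT in the change it was 2 at 40 ppm and 1 week with array weights, against 1. With only the compared arrays, Acox2 no longer passed at 120 ppm and 1 week in KO minus WT (adjusted p = 0.169) or TG minus WT (adjusted p = 0.0685), so both counts were 0, in fits with fewer arrays. With 1 animal left out, the counts ranged from 1 to 2 in WT at 40 ppm and from 1 to 3 at 120 ppm in week 1, from 0 to 1 at 120 ppm in week 4, from 0 to 4 for TG minus WT and from 0 to 1 for TG minus KO without exposure, and from 0 to 1 for KO minus WT at 120 ppm and TG minus WT at 40 ppm in the week 1 change. No other count moved in these settings. Unless stated, the cause was not tested.

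The replicate numbers of the labels were not taken to pair the animals, since not every same-numbered pair correlated above 0.1 in its deviations (45% did, with a mean r of 0.06, against −0.01 for other pairs). As a hint from the data, 41 of 90 arrays correlated best with their own number, and 7 of 9 members moved with it, as given below. The reported fit leaves this spread in its error, and in some comparisons fewer members passed in it than with the block. With the replicate number as a block, 4 members passed in WT at 40 ppm (5.11% of all genes) and 4 at 120 ppm (7.69%) in week 1 (Acot1 and Acot2 at both, with adjusted p-values of 0.0221 and 0.018 at 40 ppm and 0.0225 and 0.0192 at 120 ppm, and Angptl4 at 120 ppm, adjusted p = 0.00744). For TG minus WT without exposure 5 passed (Pdk4 at 0.000197, Cpt1a at 0.00444, Acot1 at 0.011, Acot2 at 0.0211 and Angptl4 at 0.0357), beside 0.468% of all genes, and for TG minus KO 2 passed (Cpt1a at 0.0223 and Acadl at 0.00815), beside 0.175%. For KO minus WT in the 40 ppm change of week 1 the count was 2 (Angptl4 at 0.00925 besides Acox2), beside 1.51%. Under the block the other counts of members did not change. Signals near background limit Ucp3.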

Other observations

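Replicate number, which the labels give without saying what it marks, moved with most members. In a limma F test over the 5 numbers with the 18 groups in the fit, which was chosen after seeing the data, 7 of 9 members passed (all but Acox2 and Ucp3), beside 1212 of 17097 genes (7.09%). Animals numbered 1 were the lowest of their group in 16 of 18 groups for Angptl4 and in 14 for Pdk4, with mean deviations of −0.79 and −0.69, and in 0 of 18 for Acox2. Among other genes, the glucocorticoid targets Fkbp5 (adjusted p = 2.9e-13; mean deviation of number 1 −0.97) and Tsc22d3 (0.00288) passed, as did the clock gene Arntl (0.0201), while Per1 (0.491), Dbp (0.0857) and the fat cell gene Adipoq (0.671) did not. Of the lists, 10 of 16 clock genes, 7 of 13 glucocorticoid targets, 6 of 12 hypoxia targets and 0 of 19 mitochondrial oxidation genes passed.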
